A study of Homo sapiens with 4 samples.

Results

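The set comprises 36 genes that carry glucose into the cell, break it down to pyruvate and handle the lactate and pyruvate that follow. Probes were taken by gene symbol, current or former, and 34 of the 36 genes were found, on 41 of the 24460 gene probes of the array; PKM was found under its former symbol PKM2. PGAM1, a phosphoglycerate mutase, and PDHA1, a pyruvate dehydrogenase subunit, were not analysed here. All 41 probes lay above the blank-spot limit (the mean of the blank spots plus 2 SD) on all 4 arrays, so the filter on dim probes removed no member.

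The cells were Panc1, an established line of pancreatic ductal carcinoma, and derivatives resistant to gemcitabine, the nucleoside drug used against this cancer. The parental line, not treated, had 1 array, and 3 resistant clones (GR1, GR3, GR4) had 1 each. The labels give a first gemcitabine concentration of 2 ng/ml, a last one of 30 ng/ml, a selection of 2 months, cloning by limiting dilution and medium with 10% serum for all cells; the labels do not say whether gemcitabine was present at harvest. The clones came from a single selected population, so they are not independent selections. Resistance, cloning and time in culture cannot be told apart in this design. The treatment text lists them as GR1, GR2 and GR3, whereas the titles and the series' design text give GR1, GR3 and GR4, which were followed.

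Of 24460 gene probes, 91.5% to 93.7% were above the limit on each array. Precision is limited by there being 4 arrays: the single parental array has no spread of its own, and p-values reflect how far the clones differ among themselves. Of the ductal or epithelial markers, 5 of 6 were measured (KRT7, KRT18, KRT19, EPCAM and SOX9), with a summed signal of 37419 units in the parental line and between 52273 and 62402 in the clones; KRT19 alone was lower in all 3 clones, at 4961, 8449 and 4903 units against 10351. Islet markers INS and SST summed to 14.1 units or less on every array, and the endothelial marker CDH5 to 9.33 or less. The leukocyte marker CD3E was above the limit on 2 arrays, and its list (CD3E and CD68) summed to 39.7 units in the parental line and between 16.2 and 30.3 in the clones. The fibroblast list (COL1A1, DCN and LUM) summed to 580 units on the parental array and to 270, 668 and 373 on GR1, GR3 and GR4; LUM was at 454 units on the parental array and at 160, 562 and 266 on the clones, and the part of these genes in the results was not tested. Such sums follow their brightest probes. The spots of 1 control probe, Positive Control 2, averaged 8855 units for the parental line and between 15546.5 and 16703 for the clones. These control values are after subtraction of the blank spots and before quantile normalization, unlike the other signals. The part of this control in the results was not tested.

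Glucose enters through facilitative transporters and is trapped by hexokinase. Flux is controlled at the irreversible steps, those of hexokinase, phosphofructokinase and pyruvate kinase, while the reversible enzymes between them are usually abundant. PFKFB enzymes make and degrade fructose 2,6-bisphosphate, the strongest activator of phosphofructokinase. PDK kinases switch off pyruvate dehydrogenase, which acts on pyruvate inside mitochondria. Most steps have several isozymes with their own tissue patterns, and many of these genes, PFKFB3, PFKFB4, PDK1 and LDHA among them, are known targets of hypoxia-inducible factors.

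The letters ACGTG are a core around which the factor binds DNA. The related core GCGTG was not searched for here. Upstream windows are shown for the 2 PFKFB genes with the largest decreases and for isozymes whose differences lay apart (ENO2 and ENO1, LDHA and LDHB). Each is the 250 bases before an annotated start in RefSeq, human build GRCh38.p14, written 5′ to 3′ along the gene, with ACGTG or its complement CACGT in capitals; CACGTG holds both. The pairs were picked with their values known.
PFKFB3 (plus strand, chr10:6202682-6202931): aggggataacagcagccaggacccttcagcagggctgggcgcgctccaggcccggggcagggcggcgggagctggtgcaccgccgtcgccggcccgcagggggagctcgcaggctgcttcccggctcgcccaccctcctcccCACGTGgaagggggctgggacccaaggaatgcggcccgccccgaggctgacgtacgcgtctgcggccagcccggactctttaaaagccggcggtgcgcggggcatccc
PFKFB4 (minus strand, chr3:48556804-48557053): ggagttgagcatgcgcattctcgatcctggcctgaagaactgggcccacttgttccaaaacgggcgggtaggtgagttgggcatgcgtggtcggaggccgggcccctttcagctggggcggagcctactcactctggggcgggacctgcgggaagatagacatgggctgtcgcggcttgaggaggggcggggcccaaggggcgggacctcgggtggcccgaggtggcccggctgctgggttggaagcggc
ENO2 (plus strand, chr12:6914330-6914579): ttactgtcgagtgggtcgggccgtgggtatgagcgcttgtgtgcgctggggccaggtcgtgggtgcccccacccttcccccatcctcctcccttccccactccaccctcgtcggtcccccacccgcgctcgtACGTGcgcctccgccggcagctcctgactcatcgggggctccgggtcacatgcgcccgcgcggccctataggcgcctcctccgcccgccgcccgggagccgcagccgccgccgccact
ENO1 (minus strand, chr1:8878687-8878936): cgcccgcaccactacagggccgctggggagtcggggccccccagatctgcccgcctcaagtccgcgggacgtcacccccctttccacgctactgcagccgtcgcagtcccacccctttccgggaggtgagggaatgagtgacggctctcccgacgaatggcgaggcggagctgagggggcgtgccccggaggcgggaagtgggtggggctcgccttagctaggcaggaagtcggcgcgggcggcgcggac
LDHA (plus strand, chr11:18394313-18394562): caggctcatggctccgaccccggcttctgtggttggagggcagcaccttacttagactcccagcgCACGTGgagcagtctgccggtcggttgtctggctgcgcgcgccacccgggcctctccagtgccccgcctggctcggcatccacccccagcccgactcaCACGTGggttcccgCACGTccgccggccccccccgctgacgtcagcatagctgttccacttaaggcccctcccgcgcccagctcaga
LDHB (minus strand, chr12:21657843-21658092): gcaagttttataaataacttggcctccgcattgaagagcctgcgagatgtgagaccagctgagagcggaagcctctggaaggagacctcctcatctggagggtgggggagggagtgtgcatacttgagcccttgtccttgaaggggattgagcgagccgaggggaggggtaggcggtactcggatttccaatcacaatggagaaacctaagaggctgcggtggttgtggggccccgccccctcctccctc

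RefSeq windows were at hand for 31 of the 34 genes; SLC2A3, PFKFB2 and SLC16A1 had none. The motif lay in at least 1 window of 19 of these 31 genes (61.3%), and in 22 of their 62 windows (35.5%). Among all 35116 windows of the same length it lay in 18.5%, and 21.7% of all 27305 genes had it in at least 1 window. The members thus had more windows per gene in which to hold the motif, and the shares by gene were not adjusted for it. The members that fell held the motif in 4 of 6 genes (66.7%) and 4 of 8 windows (50%). The other members held it in 15 of 25 genes (60.0%) and 18 of 54 windows (33.3%), with no test of the difference. PFKFB4, with the largest decrease past the test, has no match in the window shown, whereas PFKFB3, ENO2 and LDHA have 1, 1 and 3 separate matches there. PFKFB3 and LDHA have 2 annotated windows each; the second of each (chr10:6144671-6144920 and chr11:18396101-18396350) holds 0 matches and is not shown. All these counts and shares concern ACGTG and CACGT alone. The windows shown for PFKFB4 and ENO1 hold the related core GCGTG, which was not counted. The second windows of PFKFB3 and LDHA hold its complement CACGC, also not counted. Shares of windows with GCGTG were not tested. A match is a run of letters and no evidence of binding, and its absence concerns these letters in this window alone.

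Signals are given in intensity units after subtraction of the blank spots and quantile normalization; differences are on the log2 scale, clones minus parental, ± the standard error of the limma fit (3 clones against 1 parental array). Genes said to rise or fall passed an adjusted p of 0.05 over all tested probes (limma, Benjamini-Hochberg, two-sided). Levels of different probes are not compared, since each probe has its own response.

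Of the 34 genes, 6 fell and 1 rose. PFKFB4, PFKFB3, PDK4, ENO2, PDK1 and GPI fell, by 2.20-fold to 4.57-fold, and the lactate transporter gene SLC16A1 rose 2.43-fold. The 6 are 17.6% of the members, against 1.89% of the 16592 genes tested that fell; the 1 that rose is 2.94%, against 2.17%. By size alone, 9 of the 34 (26.5%) were at least 2-fold lower in all 3 clones, against 3.60% of genes tested, and 1 was at least 2-fold higher, against 3.66%. All 3 clones lay below the parental array for 22 members (64.7%) and above it for 8 (23.5%), where the shares over all genes tested were 37.8% and 35.3%. The median difference was −0.37 over the members and −0.015 over all genes tested. The median was −0.42 in GR1, −0.37 in GR3 and −0.38 in GR4. The members and their groups were chosen with earlier results of these data known, and all 3 comparisons share the 1 parental array, so these shares are descriptions.

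**Figure D1:**
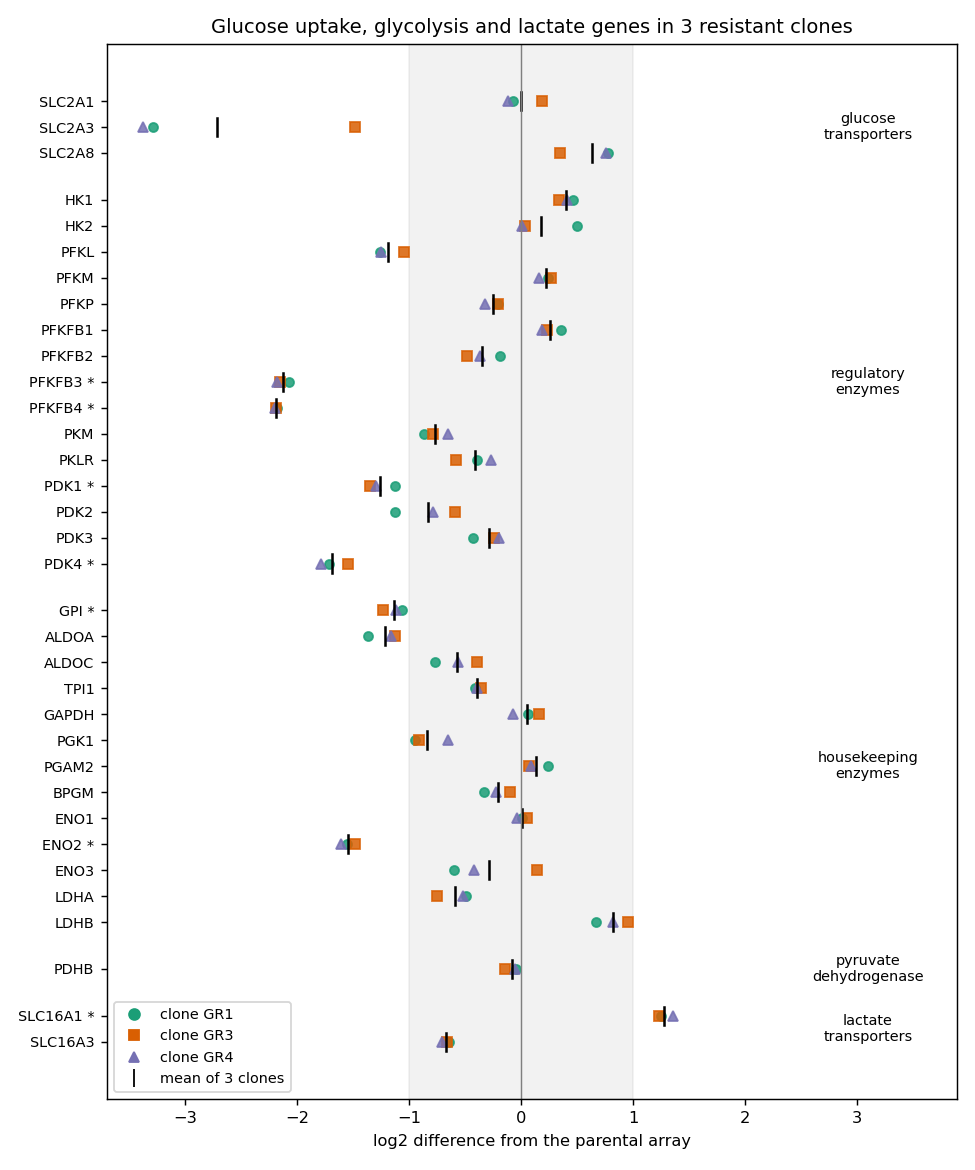
Log2 difference of each clone from the parental array (x axis) for the 34 genes (y axis, by role), with the mean of the 3 clones as a black bar, 1 to −1 shaded and genes past the limma threshold marked with an asterisk. PFKFB3 and PFKFB4 lie beyond −2 in all 3 clones, SLC16A1 lies above 1, and SLC2A3 is the gene whose clones lie farthest apart.

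The calls stand close to the threshold. Their adjusted p-values ran from 0.0442, the smallest of any gene tested, to 0.0481. Before adjustment, 5294 of the 16592 genes tested had a p under 0.05 (limma). None of the 7 passed with any 1 clone left out (smallest adjusted p among the members 0.0768) or with no filter on dim probes (0.0507), while the differences themselves lay within 0.1 of those given here in these fits.

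Fructose 2,6-bisphosphate enzymes held the largest decreases past the test. PFKFB4 gave 99.8 units on the parental array and 22.1, 21.8 and 21.6 on GR1, GR3 and GR4, the tightest grouping of clones among the members. It fell by 2.19 ± 0.10 (4.57-fold, adjusted p = 0.0442). PFKFB3, the inducible isoform with a strong bias toward making fructose 2,6-bisphosphate, gave 1053 units on the parental array and 250, 238 and 233 on the clones. All 3 clones lie together well below the parental value, and the gene fell by 2.13 ± 0.11 (4.39-fold, adjusted p = 0.0442). A dimmer second probe of PFKFB3 gave 42.2 units and 21.7, 17.1 and 21.4, a difference of −1.08 ± 0.19 (adjusted p = 0.0680). The 2 probes share the direction and differ in size by 1.05.

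The other family members did not pass. PFKFB2, the heart isoform, gave 14.5 units on the parental array and 12.8, 10.4 and 11.2 on the clones (−0.35 ± 0.16, adjusted p = 0.261). PFKFB1, the liver isoform, was dim, with 5.14 units and 6.59, 6.03 and 5.88 (0.26 ± 0.13, adjusted p = 0.269). Relative to PFKFB1 on the same arrays, PFKFB4 changed by −2.53, −2.42 and −2.40 in the 3 clones, a mean 5.47-fold shift, and relative to PFKFB2 by −1.99, −1.71 and −1.84, a mean 3.59-fold shift; both references are dim, and no test was made. With spot-level normexp, a background model fitted to the signal and background column of each spot, PFKFB4 was at −0.86 and PFKFB3 at −1.97. With the same model on blank-subtracted signals they were at −1.04 and −1.92. Both settings add an offset of 50 units to every signal.

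Of the kinases that inhibit pyruvate dehydrogenase, PDK1 and PDK4 fell. PDK1 gave 99.6 units on the parental array and 45.6, 39.0 and 40.4 on the clones (−1.26 ± 0.15, 2.39-fold, adjusted p = 0.0481). Its second probe gave 67.5 units and 24.3, 24.1 and 22.5 (−1.52 ± 0.12, adjusted p = 0.0442), so both probes place every clone at less than 0.5 of the parental signal. PDK4, which fasting and fatty acids induce in muscle and heart, was dim, with 12.9 units on the parental array and 3.92, 4.42 and 3.73 on the clones, where the floor is 1.52 units. It fell by 1.69 ± 0.15 (adjusted p = 0.0442), a size that depends on the processing. With spot-level normexp PDK4 was at −0.14 (adjusted p = 0.259), and PDK1 at −0.32 (adjusted p = 0.178). With normexp on blank-subtracted signals they were at −0.21 and −0.69. The offset of 50 units in both settings exceeds the PDK4 signal on every array, and its part was not tested.

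PDK2, the most widely expressed kinase of the family, gave 46.5 units on the parental array and 21.2, 30.9 and 27.0 on the clones (−0.83 ± 0.26, adjusted p = 0.141). GR1 lies lowest, and all clones lie below the parental value. PDK3 gave 43.2 units and 32.2, 36.6 and 37.6 (−0.29 ± 0.15, adjusted p = 0.281). All 4 kinases were lower in every clone, against 37.8% of all genes tested, and 2 of them fell, against 1.89%. PDHB, the beta subunit of the enzyme whose alpha subunit these kinases phosphorylate, gave 661 units on the parental array and 642, 599 and 636 on the clones (−0.081 ± 0.11), and its sign turns with median scaling (0.19). Of 7 other genes of mitochondrial pyruvate entry (the carriers MPC1 and MPC2, the complex subunits DLAT, DLD and PDHX, and the phosphatases PDP1 and PDP2) 0 passed limma, with PDP2 at 0.60 ± 0.23 (adjusted p = 0.187) and DLAT at 0.53 ± 0.19 (adjusted p = 0.176) farthest from 0.

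**Figure D2:**
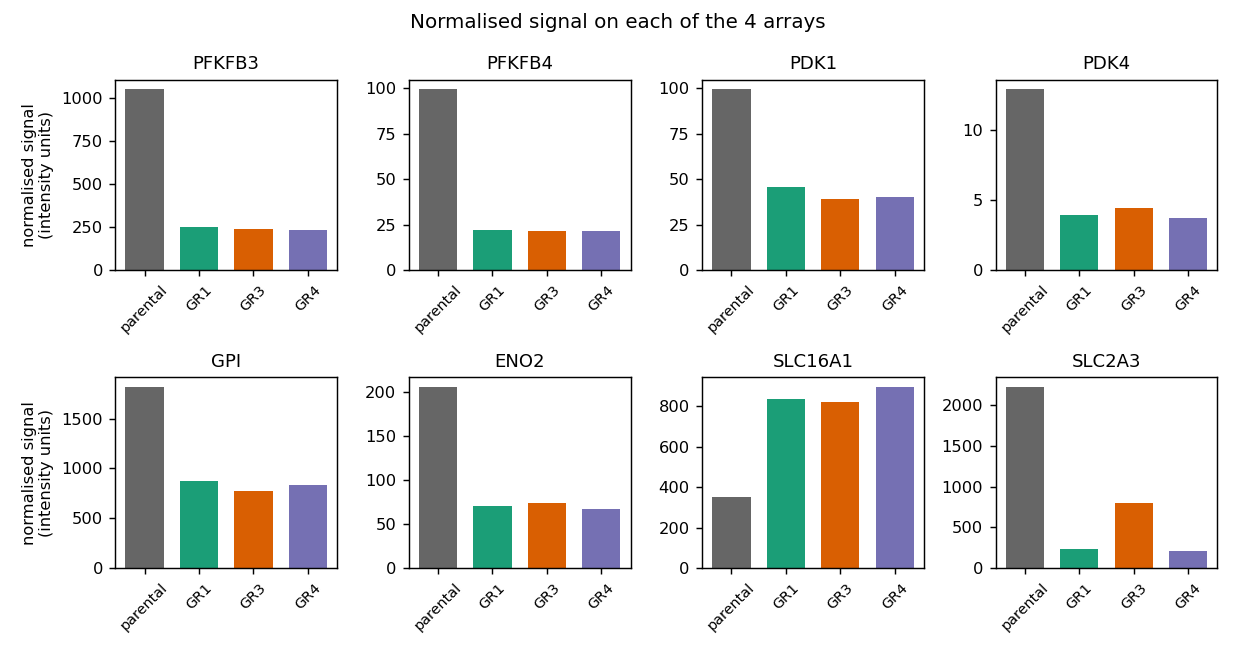
Normalised signal in intensity units (y axis, from 0) on each of the 4 arrays for the 7 genes past the limma threshold and for SLC2A3, 1 bar for each array. The 3 clones lie at similar heights except for SLC2A3, where GR3 is at 801 units beside 228 and 214.

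Phosphofructokinase, the enzyme PFKFB products activate, has 3 subunit genes, none of which passed. PFKL, the liver subunit, gave 172 units on the parental array and 71.9, 83.2 and 72.2 on the clones. Its clones lie at least 2.07-fold below the parental value and its adjusted p was 0.05004 (−1.19 ± 0.15), just over the threshold; a second probe was at −1.10 ± 0.19 (adjusted p = 0.0643). With spot-level normexp PFKL was at −0.44. PFKM, the muscle subunit, gave 213 units and 251, 257 and 237 (0.22 ± 0.11, adjusted p = 0.290). PFKP, the platelet subunit, gave 2326 units and 2017, 2014 and 1858 (−0.25 ± 0.12, adjusted p = 0.266), and was at 0.043 with median scaling. Against PFKM on the same arrays, PFKL shifted by −1.50, −1.32 and −1.41 in GR1, GR3 and GR4, 2.66-fold on average. This difference was not tested, and with spot-level normexp PFKL and PFKM were at −0.44 and 0.10.

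Neither hexokinase passed. HK1, the isozyme of most tissues, gave 56.2 units on the parental array and 77.0, 71.2 and 74.4 on the clones, all 3 above it (0.40 ± 0.11, adjusted p = 0.125). HK2, the inducible isozyme, gave 102 units and 144, 105 and 103 (0.18 ± 0.26, adjusted p = 0.683). GR1 stands apart from the other clones here, at 1.41-fold the parental signal. A second HK2 probe put GR1 at 49.7, GR3 at 25.3 and GR4 at 39.6 against 35.8 units, with GR1 again highest and the clones on both sides of the parental value. Pyruvate kinase, which closes the pathway, was lower in all clones without passing. PKM gave 631 units on the parental array and 344, 365 and 403 on the clones (−0.77 ± 0.14, adjusted p = 0.0703; second probe −0.56 ± 0.14). Its splice forms were not told apart here. PKLR, the liver and red cell gene, gave 27.9 units and 21.3, 18.6 and 23.1 (−0.41 ± 0.17, adjusted p = 0.215).

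Among the 13 other pathway enzymes measured, GPI and ENO2 fell. GPI, which converts glucose 6-phosphate to fructose 6-phosphate, gave 1822 units on the parental array and 872, 774 and 838 on the clones (−1.14 ± 0.13, 2.20-fold, adjusted p = 0.0479). Every clone is below the parental value by more than 2-fold; with median scaling the difference was −0.84 and the adjusted p 0.0751. ENO2, the neuronal enolase, gave 206 units and 69.9, 73.7 and 67.5 (−1.55 ± 0.12, 2.92-fold, adjusted p = 0.0442). ENO1, the enolase of most tissues, gave 21235 units and 21356, 22033 and 20684, with clones on both sides of the parental value (0.0078 ± 0.11, adjusted p = 0.973). Relative to ENO1 on the same arrays, ENO2 shifted by −1.56, −1.53 and −1.57. With spot-level normexp ENO1 was at −0.49 and ENO2 at −0.84, so the gap between them was smaller there. ENO3, the muscle enolase, gave 62.2 units and 41.1, 68.3 and 46.6 (−0.29 ± 0.34, adjusted p = 0.617), with GR3 alone above the parental array.

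The other enzymes among these 13 did not pass, and several were lower in every clone. ALDOA, the main aldolase, gave 12569 units on the parental array and 4847, 5751 and 5640 on the clones, each at least 2.19-fold lower (−1.22 ± 0.16, adjusted p = 0.0510). PGK1, which makes the first ATP of the pathway, gave 690 units and 358, 367 and 440 (−0.84 ± 0.17, adjusted p = 0.0816). TPI1, the triose phosphate isomerase, gave 9573 units and 7206, 7441 and 7301 (−0.39 ± 0.11, adjusted p = 0.117). GAPDH, often used as a reference gene, gave 25112 units and 26143, 28087 and 23909. The clones lie on both sides of the parental value (0.05 ± 0.14, adjusted p = 0.846), and median scaling gave −0.045. A dimmer GAPDH probe was at −0.15 ± 0.18. ALDOC, the brain aldolase, was at −0.57 ± 0.19 on one probe and −0.081 ± 0.14 on the other. PGAM2, the muscle mutase, was at 0.13 ± 0.13. BPGM, which makes 2,3-bisphosphoglycerate, was at −0.21 ± 0.14, and at 0.14 with spot-level normexp. Several of these transcripts have processed pseudogenes and close paralogs, and hybridization of related sequences to these probes was not tested.

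Lactate dehydrogenase joins pyruvate and lactate and is built from A and B chains. LDHA gave 19773 units on the parental array and 14046, 11794 and 13817 on the clones, all lower (−0.59 ± 0.16, adjusted p = 0.117). LDHB gave 4214 units and 6693, 8206 and 7441, all higher (0.82 ± 0.16, adjusted p = 0.0783). Neither chain passed alone. The A chain shifted against the B chain by −1.16 in GR1, −1.71 in GR3 and −1.34 in GR4 (mean −1.40, SD 0.28, n = 3 clones), 2.64-fold on average, with no test.

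Of the lactate transporter genes, SLC16A1 rose and SLC16A3 did not pass. SLC16A1, which encodes the transporter MCT1 that carries lactate and pyruvate in either direction, gave 350 units on the parental array and 836, 821 and 899 on the clones. It rose by 1.28 ± 0.12 (2.43-fold, adjusted p = 0.0444), and was at 0.92 (adjusted p = 0.510) with spot-level normexp. SLC16A3, which encodes MCT4, the transporter of cells that export much lactate and a known hypoxia target, gave 1002 units and 645, 633 and 613 (−0.67 ± 0.11, adjusted p = 0.0603; −0.38 with median scaling). On the same arrays the first shifted against the second by 1.89, 1.89 and 2.07 in the 3 clones, 3.87-fold on average, with no test. Of the ancillary glycoproteins that carry these transporters to the membrane, embigin (EMB) gave 24.0 units on the parental array and 116, 148 and 95.4 on the clones (2.3 ± 0.29, adjusted p = 0.0509). Basigin (BSG) gave 380 units and 181, 246 and 297 (−0.69 ± 0.32, adjusted p = 0.260). Neither passed.

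The glucose transporters did not pass. SLC2A1, the GLUT1 transporter of most cells, gave 1747 units on the parental array and 1664, 1992 and 1603 on the clones, on both sides of it (−0.0014 ± 0.18, adjusted p = 0.999; 0.28 with median scaling). SLC2A3, the high-affinity GLUT3 transporter, had the largest difference of any member, with 2231 units on the parental array and 228, 801 and 214 on GR1, GR3 and GR4. All clones are lower, GR1 by 9.77-fold, GR4 by 10.4-fold and GR3 by 2.78-fold, and because of this spread the gene did not pass (−2.72 ± 0.93, adjusted p = 0.163). Without GR3 the difference was −3.33 (adjusted p = 0.0768). Its near-copy SLC2A14 gave 286 units and 207, 208 and 203 (−0.48 ± 0.10, adjusted p = 0.0879), and sharing of signal between the 2 probes was not tested. SLC2A8, an intracellular transporter, gave 31.5 units and 54.2, 40.1 and 53.4 (0.63 ± 0.23, adjusted p = 0.184). GR3 is the nearest of the clones to the parental value in SLC2A3 and SLC2A8.

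**Figure D3:**
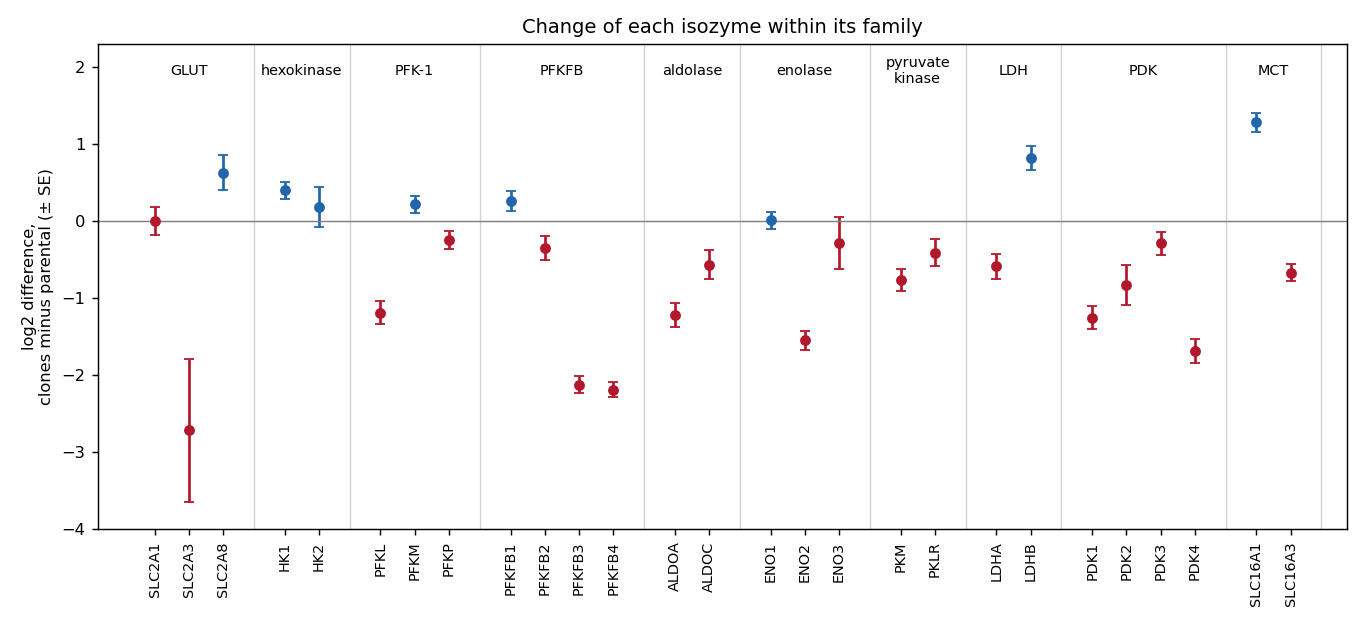
Log2 difference of the clones from the parental array (y axis, mean ± SE of the limma fit, 3 clones against 1 array) for each isozyme, grouped by family along the x axis, red below 0 and blue above. Members of the PFKFB, enolase, LDH and MCT families lie at different heights, with PFKFB3 and PFKFB4 near −2 and PFKFB1 above 0.

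Regulatory and housekeeping enzymes were then set side by side. The 15 regulatory genes are those of the irreversible steps (HK, PFK and pyruvate kinase), the PFKFB enzymes and the PDK kinases of pyruvate dehydrogenase. The 13 housekeeping genes are the other pathway enzymes measured. These groups follow the step and not the tissue pattern, so the housekeeping group includes the tissue-restricted isozymes ENO2, ENO3, ALDOC and PGAM2. Isozymes of the same step are compared within their families above. Of the regulatory genes 4 fell (26.7%) and of the housekeeping genes 2 fell (15.4%), each group with 0 that rose. The 4 were PFKFB3, PFKFB4, PDK1 and PDK4, and no HK, PFK or pyruvate kinase gene passed. Over all genes tested 1.89% fell and 2.17% rose. At least 2-fold lower in all clones were 5 of 15 (33.3%) and 3 of 13 (23.1%), against 3.60% of all genes tested. By the brighter probe of each gene, all regulatory genes had their 3 clones on one side of the parental array, 11 below and 4 above. HK2 counts among the 4 through differences of 0.036 and 0.006 in GR3 and GR4, and its second probe lies on both sides. Among the housekeeping genes 8 were below, 2 above and 3 (GAPDH, ENO1 and ENO3) on both sides. Over all genes tested, 37.8% had all 3 clones below and 35.3% had all 3 above. The medians were −0.41 and −0.39, and the ranges ran from −2.19 to 0.40 and from −1.55 to 0.82. The medians thus lay close together and the groups overlapped widely. With spot-level normexp the medians were −0.082 and −0.28, and with median scaling −0.41 and −0.27. No test of the groups was made.

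The clones resembled each other in most members. The range between the clones had a median of 0.23 on the log2 scale over the 34 genes and of 0.30 over all genes tested, and it was over 0.5 in 3 members, SLC2A3 (1.91), ENO3 (0.73) and PDK2 (0.55). GR3 was the clone farthest from the clone median in 14 members, GR1 in 12 and GR4 in 8. Of the 7 genes with a pair of probes, the pair had the same sign in 6, all but GAPDH, and in PFKFB3 and ALDOC the probes differed most (1.05 and 0.49).

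Branches that leave or feed the pathway were described with 80 genes in 8 lists, of which 72 were tested; 2 rose (2.78%) and 1 fell (1.39%). These shares are near those over all genes tested, 2.17% and 1.89%, so the 3 genes are given as single values and not as a result of the lists. UAP1, the enzyme that completes UDP-N-acetylglucosamine, gave 265 units on the parental array and 781, 798 and 741 on the clones, and rose by 1.54 ± 0.11 (adjusted p = 0.0442). It was the 1 of 5 hexosamine genes that passed, and the median of that list was 0.62. PYGB, the brain form of glycogen phosphorylase, gave 76.8 units and 161, 170 and 167 and rose by 1.11 ± 0.11 (adjusted p = 0.0444). It was the 1 of 8 glycogen genes that passed, and the median of that list was −0.48, opposite in sign.

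Of 13 regulators, EGLN3 fell. This prolyl hydroxylase marks hypoxia-inducible factor for destruction and is itself induced by hypoxia. It gave 488 units on the parental array and 48.3, 69.6 and 47.7 on the clones (−3.17 ± 0.29, adjusted p = 0.0442). HIF1A, the factor's alpha subunit, gave 369 units and 890, 525 and 718 (0.91 ± 0.34, adjusted p = 0.188), above the parental value in all clones. In the same list EPAS1 was at 0.48 ± 0.13, ARNT at −0.79 ± 0.22 and EGLN1 at −0.6 ± 0.13, and none of them passed. TXNIP, an inhibitor of glucose uptake that glucose induces, gave 271 units and 50.8, 38.4 and 88.6 (−2.28 ± 0.54, adjusted p = 0.0962), all below. MYC was at 0.87 ± 0.14 (adjusted p = 0.0616).

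In the other lists 0 genes passed limma. Of the 6 pentose phosphate genes tested, PGLS (−0.61 ± 0.18, adjusted p = 0.128) and RPIA (0.37 ± 0.17) lay farthest from 0, with a list median of 0.21. Of 7 gluconeogenic genes, FBP1, the fructose bisphosphatase, was at −1.65 ± 0.50 (adjusted p = 0.138) with GR3 lowest, and PC, the pyruvate carboxylase, at −0.59 ± 0.19. Of 3 glycerol phosphate dehydrogenases, GPD1 was at −0.74 ± 0.14 (adjusted p = 0.0756) and GPD1L at −0.38 ± 0.19. Of 23 further isozymes tested, EMB and SLC2A12 lay farthest from 0; SLC2A12 gave 9.19 units on the parental array, 4.35 on GR3 and the floor of 1.52 on GR1 and GR4 (adjusted p = 0.178).

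**Figure D4:**
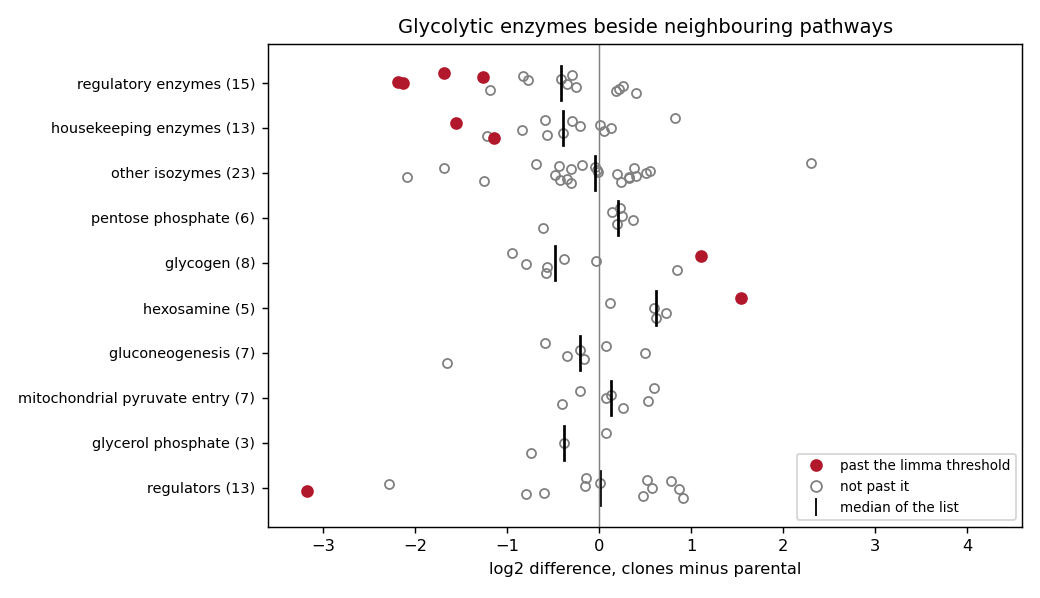
Log2 difference, clones minus parental (x axis), of each gene of the regulatory and housekeeping enzymes and of 8 neighbouring lists (y axis, genes tested in brackets), with genes past the limma threshold filled in red and the list's median as a black bar. The glycolytic groups hold 6 filled points, all below 0, and the neighbouring lists hold UAP1 and PYGB above 0 and EGLN3 below.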

How the data were processed

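Amplified RNA with the single dye Cy5 was hybridized to Toray 3D-Gene oligonucleotide arrays. Per the file headers, the deposited scanner files give each spot's median intensity and a background column, also intensity. Per the series' design text, the authors subtracted the blank spots; their deposited table of scaled intensity was recomputed from the spots to within 6.11e-06 units, with the mean of the middle 90% of 2680 blank spots. Here that mean was subtracted, signals were quantile normalized, set to no less than 1.52 units and log2-transformed; faulty spots (11 probes) were left out. The plan called for this subtraction, and the background column, which follows the spot signal (log correlation 0.940 to 0.966), entered as an alternative. Tested probes lay above the limit in the parental line or in every clone (22796 probes, 16592 genes; brightest probe per gene). Of 20236 probes with a symbol, 2899 symbols were updated through RefSeq.

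The 3 clones were set against the parental line with limma 3.58.1 in R 4.3.3 (lmFit, eBayes, 2 residual degrees of freedom, the parental array assumed to vary like the clones), and Benjamini-Hochberg adjustment ran across the tested probes. Every member was named. Genes of the neighbouring lists were named where past the threshold or, failing that, the 2 farthest from 0. HIF1A, EPAS1, ARNT, EGLN1, TXNIP, MYC, BSG and SLC2A14 were added after their values were seen. Members and lists were chosen with earlier results of these data known.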

Additional observations from a re-analysis of the deposited data

How the results depend on the processing

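The 34 genes were refitted under 12 alternatives, 408 fits in all: 336 kept direction and side of the threshold, 42 lost the call, 10 gained it and 20 turned sign, none of the latter in a gene that passed. Counts of members that fell and rose, 6 and 1 here, were 2 and 0 with spot-level normexp, 10 and 1 with blank-level normexp (the same model on blank-subtracted signals), 2 and 1 with no normalization, 9 and 2 for probes above the limit on all 4 arrays and 0 and 0 with no filter on dim probes. Without replicate 1, 3 or 4 they ranged from 0 to 0, with 1 residual degree of freedom left (limma; 3667, 6079 and 3533 of all genes had an unadjusted p under 0.05, and 5403 with no filter). The 9 members lower by 2-fold or more in every clone numbered 2 with spot-level normexp, 5 with no normalization, 5 with the authors' value table and 2 at 3-fold; the 1 that was higher numbered 0 with spot-level normexp, 2 at 1.5-fold and 0 at 3-fold. Over all genes the limma count was 147 with spot-level normexp, 208 with no normalization, 796 with median scaling, 1018 with the authors' value table, 1632 with blank-level normexp, 2127 for probes above the limit on all 4 arrays and 0 with no filter, against 674; the share higher was 36.7% with spot-level normexp, 63.8% with median scaling and 68.8% with the authors' table, against 53.4%.

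The median over all members, −0.37, was −0.20 and −0.18 under the 2 normexp settings, −0.27 with no normalization, −0.31 with median scaling or the authors' table, −0.34 with the mean of a gene's probes and −0.41 to −0.36 with 1 clone left out. The regulatory median was −0.082 and −0.21 under the normexp settings. The housekeeping median was −0.28 and −0.32 there, −0.22 with no normalization, −0.27 with median scaling, −0.26 with the authors' table and −0.50 to −0.38 with 1 clone left out. With no normalization the sign turned in SLC2A1 (0.32), PFKP (0.086), GAPDH (−0.0023) and PDHB (0.23). With median scaling it turned in SLC2A1 (0.28), PFKP (0.043), GAPDH (−0.045) and PDHB (0.19), and with the authors' table in SLC2A1 (0.28), PFKP (0.046), GAPDH (−0.043) and PDHB (0.19). With spot-level normexp it turned in HK2 (−0.016), BPGM (0.14) and ENO1 (−0.49), with the mean of probes in GAPDH (−0.049), and with a clone left out in SLC2A1 (−0.093 to 0.061), GAPDH (−0.012 to 0.11) and ENO1 (−0.019 to 0.034). The cause was not tested. No paired analysis was possible because the labels pair no clone with the 1 parental array. Dim genes such as PDK4 and PFKFB1 lie near background, which limits their differences.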
